A study of Mus musculus with 300 samples.

Results

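Livers of 6 F1 hybrid mice were compared with livers of 6 mice of the MRL/MpJ (MRL) parental strain, 12 of the 300 animals of an intercross study. The animals were picked by their titles, which name the strain or generation, an animal number and a sex code, F or M. The F1 mice were (MRL/MpJ x SM/J) offspring of MRL mothers and SM/J (SM) fathers, with 3 labelled female and 3 labelled male, and the MRL mice likewise gave 3 of each sex. All were 13 weeks old, ate chow, lived alone for 3 days before tissue collection and were fasted on that day, and no treatment was given. The 6 SM animals, 3 of each sex, supply the level of the other parent. RNA of each liver was read on its own Affymetrix Mouse Gene 1.0 ST array, and the values are log2 expression levels of 34406 Ensembl transcripts. The number of arrays limits the precision. Transcripts are named by identifier alone, because the gene table used here held none of these identifiers. Neither the liver identity of the samples nor the role of a transcript could therefore be checked against marker genes.

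An F1 animal of an inbred cross carries an MRL copy and an SM copy of every autosomal gene, and all F1 animals of a sex are nearly identical genetically. Sons of an MRL mother carry only the MRL X chromosome, and offspring of both sexes have MRL mitochondria. Where the parental alleles are read at different rates in cis, the hybrid is expected between the parents. A hybrid that stays with a parent is said to show dominance of that parent's level, and one outside both shows over- or underdominance. An array adds a further feature: where the strains differ in sequence beneath a probe, the signal of an allele can change with no change in its RNA, which was not tested here.

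The library labelled F1 male 1146 did not have a male profile. Of 39 transcripts that separated the sexes by at least 2 log2 units in the F2 animals, it lay nearer the F2 female mean in 37, while the other F1 males and all MRL males did so in 0. MRL females 1, 2 and 3 did so in 37, 36 and 36, and the F1 females in all 39. On 98 transcripts this library stood over 1 log2 unit away from both other F1 males, on the same side. Next came F1 female 1145 with 22 such transcripts, and each other F1 or MRL animal had at most 7. Results are therefore given with all 12 animals and again without the library labelled F1 male 1146. The arrays also differed in spread, the SD over all transcripts of an array. It was 1.31 in each F1 female and 1.23 to 1.25 in MRL females, but 1.22 to 1.28 in F1 males and 1.29 to 1.31 in MRL males, so that F1 lay above MRL in females and below it in males. Neither sex had overlapping values (exact permutation test, two-sided, p = 0.1 in each, the smallest p that 3 against 3 allows). The 12 arrays came from 9 of the batches named in the labels. No batch held F1 and MRL animals of the same labelled sex, so no within-batch value could be formed within a labelled sex. Batch 11 held the library labelled F1 male 1146 with MRL female 1, and batch 2 held F1 female 1150 with MRL males 7 and 8.

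The first comparison asked which MRL levels the hybrid left. With sex as a covariate, 417 of 34406 transcripts (1.21%) differed between F1 and MRL by limma with a Benjamini-Hochberg adjusted p below 0.05, of which 224 were higher (0.651%) and 193 lower (0.561%) in F1. Differences of at least 1 log2 unit went mainly upwards, with 17 transcripts higher and 2 lower in F1. Without the library labelled F1 male 1146, 290 transcripts (0.843%) were called, 160 higher (0.465%) and 130 lower (0.378%), and 16 rose and 0 fell by at least 1 unit. The fits shared 269 calls, all in the same direction, while 148 were called only with that library and 21 only without it. The median size of a called difference was 0.40 log2 units, against 0.05 over all transcripts, called or not. Called transcripts were also the more strongly expressed ones: 86.3% had a mean level above the median of all transcripts.

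Without 1146, the F1 and MRL animals of 977 transcripts (2.84%) did not overlap in either sex, with F1 on the same side in both, and 290 (0.843%) were called. Of these 977, 260 (0.756% of all transcripts) were called in both fits, and among them ENSMUST00000078869_at rose most. MRL females had 8.17, 7.74 and 8.73 and MRL males 9.80, 9.96 and 10.14. F1 females had 12.62, 12.30 and 12.24, and animals labelled F1 male had 12.24, 12.19 and 12.04, the first of these being 1146. Every F1 animal exceeded every MRL animal, and the MRL females were below the MRL males. The F1 minus MRL difference was 3.18 ± 0.29 log2 units (SE), a 9.06-fold higher level (limma adjusted p = 7.49e-05), and 3.27 ± 0.31 without 1146 (adjusted p = 1.63e-04). That value averages unlike differences, 4.17 ± 0.18 (18.0-fold) in females and 2.19 ± 0.18 (4.55-fold) in males. Their difference, male minus female, was -1.99 ± 0.26 (interaction, adjusted p = 0.00593), and -2.03 without 1146 (adjusted p = 0.00402). SM animals stood at 12.33 to 12.58.

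ENSMUST00000098035_at was the next to rise. Its levels were 7.67, 7.75 and 9.00 in MRL females and 7.88, 8.82 and 8.52 in MRL males. F1 females gave 9.34, 10.95 and 10.60, and F1 males 9.83 (1146), 10.24 and 10.06. The lowest F1 animal, female 1145, was only slightly above the highest MRL animal, female 3, and the other animals were well apart. The difference was 1.90 ± 0.28 log2 units (SE, adjusted p = 0.00352), and 1.97 ± 0.30 without 1146 (adjusted p = 0.0055).

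In the other direction, ENSMUST00000092163_at fell from 9.12, 8.84 and 9.20 in MRL females to 8.02, 8.19 and 7.99 in F1 females, and from 8.50, 8.68 and 8.36 in MRL males to 7.93 (1146), 7.65 and 7.58 in F1 males. The F1 minus MRL difference was -0.89 ± 0.08 log2 units (SE, adjusted p = 8.18e-05), and it was -0.95 without 1146. ENSMUST00000025966_at fell by 1.01 ± 0.15 log2 units (SE, adjusted p = 0.00307) and by 0.93 without 1146 (adjusted p = 0.00708). MRL animals lay between 7.35 and 8.13 and F1 animals between 6.27 and 6.88, so that the groups did not overlap. For this transcript an SM female, replicate 2, reached 7.96 while the other SM animals lay between 5.92 and 6.97.

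**Figure D1:**
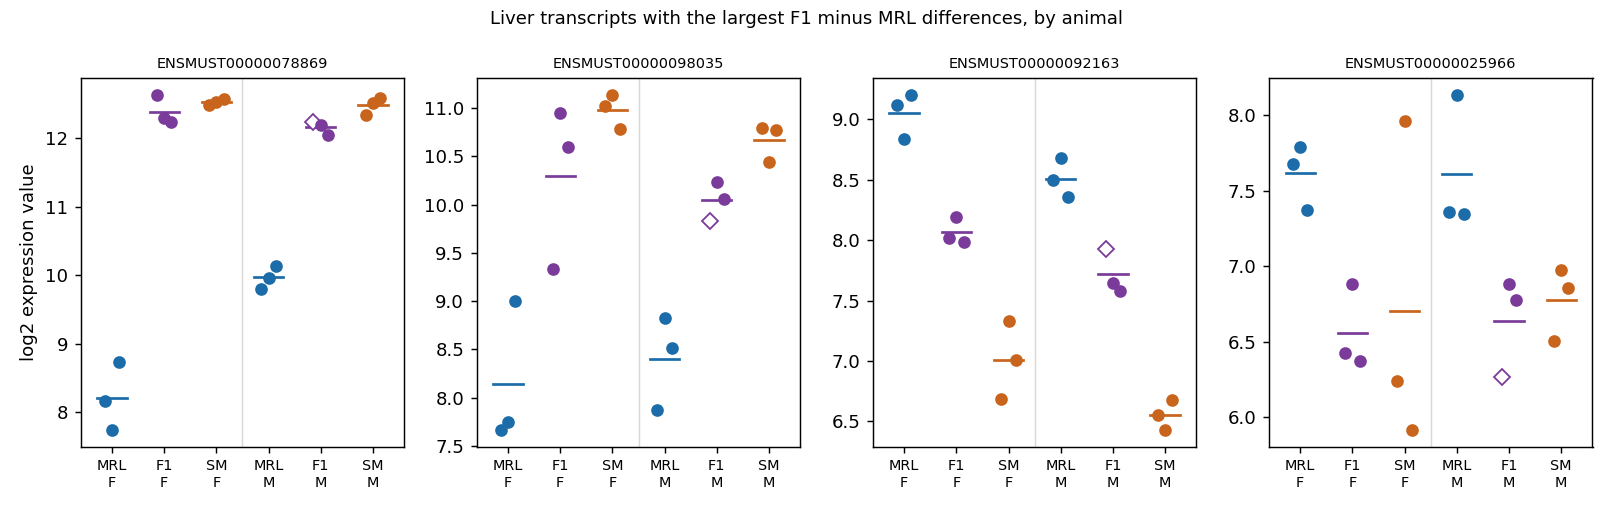
Log2 expression values by animal for 4 named transcripts, 2 higher and 2 lower in F1 than in MRL, in MRL, F1 and SM livers of each labelled sex (F, M). Points are animals, horizontal lines are group means, and the open diamond is the library labelled F1 male 1146. ENSMUST00000078869 stood above 12 in every F1 animal and at 7.74 to 10.14 in MRL.

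The count depended on single animals and on the treatment of batch. It was 256 without MRL male 7, 254 without F1 female 1150, 230 without MRL female 2, 266 without MRL female 1 and 913 without F1 male 1152. The library labelled F1 male 1146 was kept in each of these fits. A random block for batch raised it to 1117. Batch fitted as fixed in the 18 MRL, SM and F1 animals left 135, in a fit with only 5 residual degrees of freedom. When all 300 animals were fitted with batch 403 were called, or 85 without 1146. The 300-animal fits also take in the 282 F2 animals, whose spread enters the error. What the batch term, the lost degrees of freedom and the F2 spread each did to a call was not told apart, here or below. ENSMUST00000078869_at and ENSMUST00000098035_at passed under each of the 27 alternatives run for them, at 2.96 to 3.52 and 1.72 to 2.14 log2 units, and the pair that fell missed the threshold in the 300-animal fit without 1146 (adjusted p = 0.0944 for ENSMUST00000092163_at and 0.217 for ENSMUST00000025966_at). In the 18-animal fit without 1146, ENSMUST00000025966_at did not pass either (-0.94, adjusted p = 0.101).

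The second comparison placed the F1 level on the way from MRL to SM. A fit of the 18 animals with sex as a covariate called 2802 transcripts (8.14%) between MRL and SM, and 121 of them differed by at least 1 log2 unit, 55 higher in MRL and 66 higher in SM. F1 minus SM called 440 (1.28%), and 367 (1.07%) without the library labelled F1 male 1146. The 121 transcripts were chosen with MRL values that also enter F1 minus MRL, so their counts are a description without a test. An F1 level was placed on the MRL side when the 95% interval of F1 minus MRL stayed within 0.5 of the distance between the parents, and on the SM side when the interval of F1 minus SM did so. By this rule 18 transcripts lay on the MRL side and 20 on the SM side. A further 21 were between the parents with both differences called, and 62 were not resolved with these animals. The sides were assigned first, and a transcript on a side could still differ from both parents, as ENSMUST00000044547_at did. A side is thus not the parental level itself, and the 21 are not all transcripts with both differences called. Of the 121, F1 minus MRL was called in 66 and F1 minus SM in 67.

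The side the hybrid took went with which parent was higher. Of the 55 transcripts higher in MRL, 16 were on the MRL side and 1 on the SM side. Of the 66 higher in SM, 2 were on the MRL side and 19 on the SM side. Taking the SM level as 0 and that of MRL as 1, F1 had a median position of 0.67 for transcripts higher in MRL (quartiles 0.54 and 0.76) and 0.36 for those higher in SM (quartiles 0.29 and 0.47). F1 minus MRL was called in 15 of the former 55 and in 51 of the latter 66. The F1 mean lay nearer the higher parent in 97 of the 121. Without the library labelled F1 male 1146 2852 transcripts (8.29%) were called between the parents and the set had 123, with 13 on the MRL side, 24 on the SM side and 20 between, and medians of 0.67 and 0.33. Of the 18 transcripts on the MRL side 10 kept that place without this library, as did 19 of the 20 on the SM side and 17 of the 21 between. These counts may not be of separate observations, because which transcripts share a gene or probes was not known here. For example, ENSMUST00000110135_at, ENSMUST00000110136_at and ENSMUST00000110137_at, all on the SM side, had nearly the same F1 minus MRL (1.17, 1.05 and 1.06 log2 units).

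These positions are on the log2 scale. On the unlogged scale, where the midpoint of the parents lies above the log2 midpoint, the median F1 position was 0.56 for transcripts higher in MRL and 0.49 for those higher in SM, and 0.57 and 0.46 without 1146. There the F1 mean was nearer the higher parent in 69 of 121. The lean towards the higher parent thus depended on the scale, and which scale fits the cell was not tested.

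**Figure D2:**
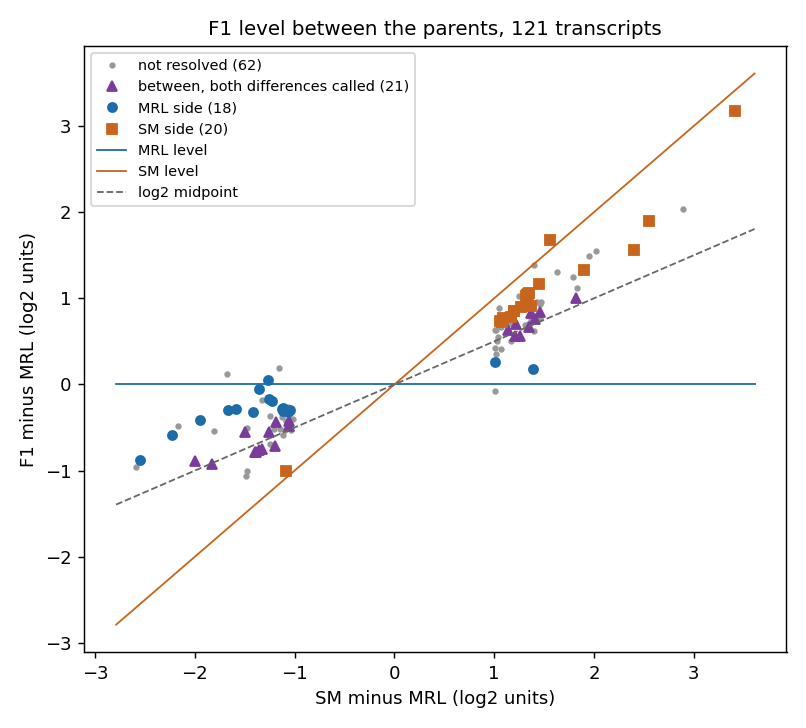
F1 minus MRL against SM minus MRL, in log2 units, for the 121 transcripts that differed between the parents by at least 1 log2 unit. The horizontal line is the MRL level, the solid diagonal the SM level and the dashed line the log2 midpoint; both axes share the MRL animals, so the slope itself is not a result. The 19 SM-side transcripts higher in SM lie at right and the 16 MRL-side transcripts higher in MRL lie at left.

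F1 minus MRL was not called in 17 of the 18 MRL-side transcripts. ENSMUST00000044547_at, the exception, had the greatest parental difference of these 18. It was 9.29, 9.37 and 9.00 in MRL females and 9.25, 9.06 and 9.21 in MRL males. F1 females had 8.52, 8.23 and 8.16, F1 males 8.37 (1146), 8.28 and 8.35, and SM animals 6.39 to 6.90. All F1 animals lay below all MRL animals and above all SM animals. F1 minus MRL was -0.88 ± 0.07 log2 units (SE, adjusted p = 3.33e-05), at position 0.66. On the log2 scale F1 thus left the MRL level but stayed on its side, whereas unlogged its mean lay nearer that of SM. The call of F1 minus MRL was lost in the 300-animal fits (-0.81 log2 units, adjusted p = 0.429, and adjusted p = 0.629 without 1146).

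ENSMUST00000100285_at was at 11.08 to 11.42 in MRL females and 10.90 to 11.20 in MRL males, and at 8.11 to 10.05 in SM. F1 females 1145 and 1150 had 11.09 and 11.20, at the MRL level, while F1 female 1149 had 10.14. F1 males were at 10.50 (1146), 10.00 and 10.22, below all MRL males. The difference of -0.58 ± 0.16 log2 units (SE) did not pass (adjusted p = 0.113), and its 95% interval ran from -0.93 to -0.24. Subtraction of each transcript's slope on array spread made it pass (-0.63, adjusted p = 0.034). Without 1146 its place was not resolved.

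SM was the higher parent in the other named pair of the MRL side. ENSMUST00000082367_at had 8.43, 8.65 and 9.05 in MRL females and 9.26, 9.12 and 8.76 in F1 females, against 10.00 to 10.33 in SM females. In males it had 7.88, 7.68 and 7.49 in MRL, 8.28 (1146), 7.61 and 7.22 in F1 and 8.99 to 9.05 in SM. F1 and MRL overlapped in each sex, and F1 stayed below SM throughout. The difference was 0.18 ± 0.16 log2 units (SE, adjusted p = 0.788), with a 95% interval from -0.17 to 0.52.

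ENSMUST00000099372_at shows what the library labelled F1 male 1146 does to a position. MRL females had 6.90, 6.93 and 6.85 and MRL males 7.82, 7.74 and 7.65. F1 females had 7.48, 7.18 and 7.29, F1 males 1151 and 1152 had 8.04 and 8.08, and 1146 had 7.37, among the F1 females. With all animals F1 minus MRL was 0.26 ± 0.11 log2 units (SE, adjusted p = 0.411) and the transcript was on the MRL side. Without 1146 the difference was 0.38 ± 0.06 (adjusted p = 0.00722), each F1 animal lay above each MRL animal of its sex, and the transcript was between the parents.

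**Figure D3:**
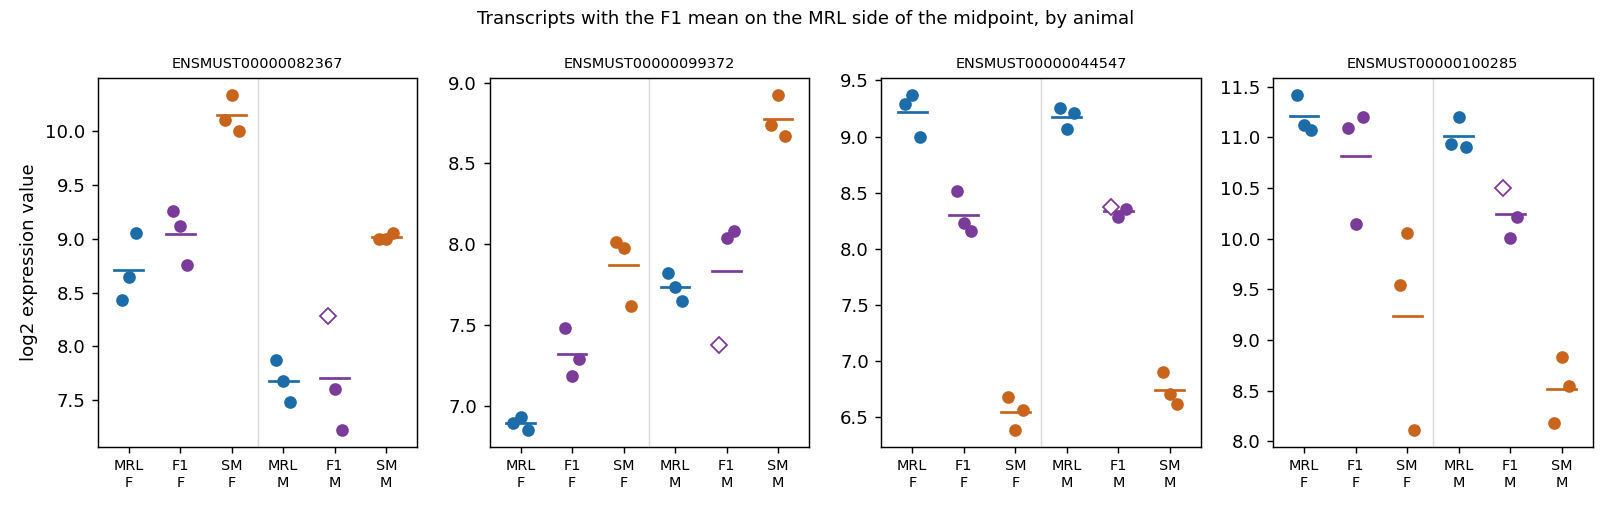
Log2 expression values by animal for the 4 named transcripts with the F1 mean on the MRL side of the log2 midpoint, in MRL, F1 and SM livers of each labelled sex (F, M). Points are animals, lines are group means, and the open diamond is the library labelled F1 male 1146. For ENSMUST00000099372 that library stood at 7.37, below the MRL males, while the other F1 males stood at 8.04 and 8.08.

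At the other end, F1 reached the SM side in 19 transcripts that were higher in SM, with F1 minus MRL from 0.72 to 3.18 log2 units and each of them called in that comparison. ENSMUST00000078869_at was at position 0.07, with F1 minus SM at -0.23 ± 0.28 log2 units (SE, adjusted p = 0.851) and a 95% interval from -0.81 to 0.35. ENSMUST00000098035_at was at 0.26. The only SM-side transcript that was higher in MRL, ENSMUST00000022826_at, fell by 1.01 ± 0.18 log2 units in F1 (SE, adjusted p = 0.0108). It had 7.40, 7.74 and 7.38 in MRL females and 6.70, 6.98 and 6.76 in F1 females, within or just above the SM range of 6.52 to 6.78. MRL males had 8.68, 8.83 and 8.58 and F1 males 1151 and 1152 had 7.86 and 7.61, above the SM males at 7.24 to 7.47, whereas 1146 had 6.66. Without 1146 the difference was -0.81 ± 0.09 (adjusted p = 6.78e-04) and the position moved from 0.07 to 0.24.

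Of the 21 transcripts between the parents, 4 are described, those with the greatest parental difference in each direction. ENSMUST00000069507_at was 9.06 to 9.56 in MRL and 10.92 to 11.39 in SM, and 5 of 6 F1 animals had 10.38 to 10.59. F1 female 1145, at 9.46, lay in the MRL range. It rose by 1.01 ± 0.14 log2 units in F1 (SE, adjusted p = 0.00267). ENSMUST00000030486_at was 9.70 to 10.23 in MRL, 10.54 to 11.30 in F1 and 11.25 to 11.93 in SM, and rose by 0.84 ± 0.10 (SE, adjusted p = 8.33e-04). With all 300 animals and batch in the model neither of this pair passed (adjusted p = 0.11 and 0.178).

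Among those higher in MRL, ENSMUST00000066530_at was 9.57 to 9.98 in MRL and 8.58 to 9.10 in F1. Its SM values were scattered, from 7.09 to 9.06, so that SM female 2 lay among the F1 animals. It fell by 0.92 ± 0.07 log2 units in F1 (SE, adjusted p = 1.68e-05). Without 1146 the 18-animal fit, which takes in the SM spread, did not call it (adjusted p = 0.0672). ENSMUST00000092163_at, described above, was at position 0.56, with SM at 6.43 to 7.33.

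Set side by side over all called transcripts, SM lay further from MRL than F1 did. In the 18-animal fit 534 transcripts (1.55%) were called between F1 and MRL, 267 in each direction, and 339 (0.985%) without 1146. For those higher in F1 the median F1 minus MRL was 0.40 and the median SM minus MRL was 0.48 log2 units. For those lower in F1 the medians were -0.32 and -0.43. Both differences use the same MRL animals, which by itself draws them in the same direction, and no test is attached to them.

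F1 stood outside both parents, with F1 minus MRL and F1 minus SM called in the same direction, in 4 transcripts, 1 above and 3 below. ENSMUST00000099390_at had 8.11, 8.19 and 8.10 in MRL females and 8.41, 8.20 and 8.21 in MRL males. F1 animals had 7.54, 7.68 and 7.85 (females) and 7.56 (1146), 7.59 and 7.68 (males), and SM animals 7.94 to 8.28. F1 minus MRL was -0.55 ± 0.06 log2 units in the 12-animal fit (SE, adjusted p = 8.33e-04), and F1 minus SM was -0.41 in the 18-animal fit (adjusted p = 0.00216). ENSMUST00000099391_at was 8.58 to 8.70 in MRL, 7.96 to 8.49 in F1 and 8.44 to 8.74 in SM, and F1 female 1150, at 8.49, was the F1 animal that overlapped SM. The transcript fell by 0.48 ± 0.07 against MRL (SE, adjusted p = 0.0041), and F1 minus SM was -0.41 in the 18-animal fit (adjusted p = 0.00463). The identifiers of this pair are consecutive, but whether they share a gene or probes was not known here, so they may not be separate observations.

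ENSMUST00000047399_at was the transcript above both parents. It had 6.67, 6.66 and 6.84 in MRL females against 7.28, 7.15 and 7.46 in F1 females, and 7.11, 7.01 and 7.03 in MRL males against 7.27 (1146), 7.58 and 7.30 in F1 males. SM animals had 6.29 to 7.00, below every F1 animal. The difference from MRL was 0.46 ± 0.07 log2 units in the 12-animal fit (SE, adjusted p = 0.00618), and that from SM was 0.63 in the 18-animal fit (adjusted p = 5.35e-04). The remaining transcript, ENSMUST00000035918_at, falls outside the naming rule and is given because the set is so small. In the 18-animal fit it was 0.34 lower than MRL (-0.34 ± 0.08, SE, adjusted p = 0.047), with F1 minus SM at -0.43 (adjusted p = 0.0107). This transcript was not in the set without 1146. The other 3 were, but with all 300 animals and batch in the model none of these 3 differed from MRL at the threshold (adjusted p = 0.554 for ENSMUST00000099390_at, 0.629 for ENSMUST00000099391_at and 0.308 for ENSMUST00000047399_at). The F2 spread enters the error of that fit. Over the 27 alternatives their differences from MRL stayed at -0.60 to -0.49, -0.55 to -0.41 and 0.41 to 0.56 log2 units, in the same order. With a mean for each of the 6 groups in place of a sex covariate, the set had 11 transcripts.

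**Figure D4:**
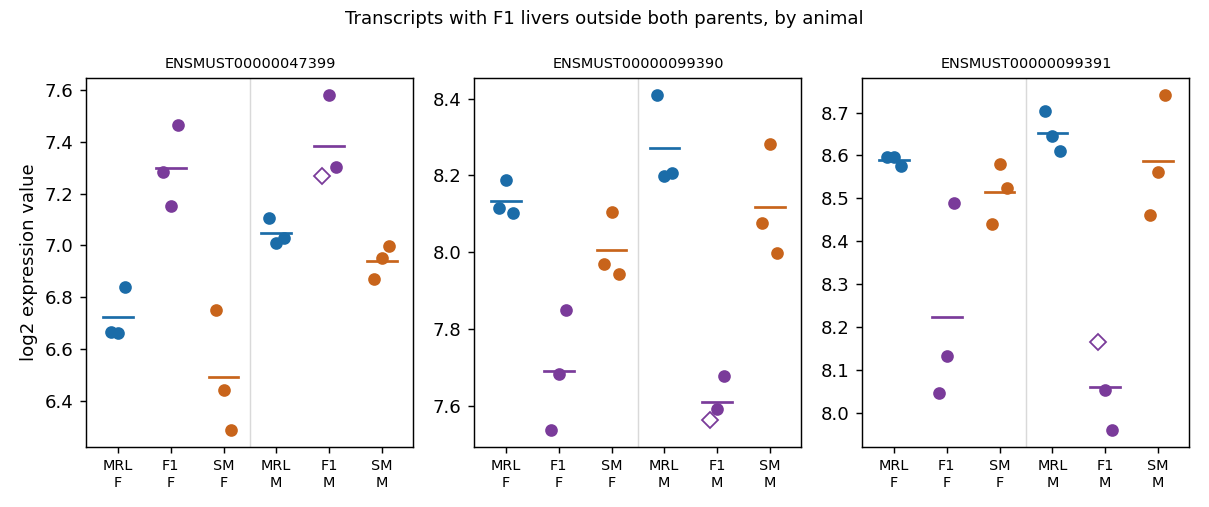
Log2 expression values by animal for 3 transcripts on which F1 livers lay outside both parents, in MRL, F1 and SM livers of each labelled sex (F, M). Points are animals, lines are group means, and the open diamond is the library labelled F1 male 1146. For ENSMUST00000099390 the F1 animals stood at 7.54 to 7.85 and all parental animals at 7.94 or above.

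Split by sex, the comparison gave very different counts. In females 7894 transcripts (22.9%) were called, 3847 higher (11.2%) and 4047 lower (11.8%) in F1. In males there were 511 (1.49%), 142 higher (0.413%) and 369 lower (1.07%). Without 1146 the female count was 8669 (25.2%), with 4248 higher (12.3%) and 4421 lower (12.8%). The male count was 582 (1.69%), with 165 higher (0.480%) and 417 lower (1.21%). The test of the difference itself, male minus female F1 minus MRL difference, called 8929 transcripts (26.0%), 4562 with the higher difference in males (13.3%) and 4367 with the lower (12.7%). Without 1146 it called 10113 (29.4%), 5146 (15.0%) and 4967 (14.4%) in these directions. Most differences were small: in females 46 of the 7894 reached 1 log2 unit, 39 of them higher in F1.

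These counts changed when array spread was adjusted for. The spread was higher in F1 than MRL females and lower in F1 than MRL males, with no overlap in either sex. Subtraction of its slope can therefore take out a difference between F1 and MRL along with the spread. These cannot be told apart here. With each transcript's slope on array spread, estimated in F2, subtracted, 371 transcripts were called in females, 212 in males and 3 for the difference between the sexes. The count over both sexes went the other way, from 417 to 1099, and 416 of the 417 were among them. Under that subtraction 48.8% of the female calls, 45.8% of the male calls and 45.1% of the joint calls were higher in F1. As deposited, these shares were 48.7%, 27.8% and 53.7%. Centring arrays on their median gave 74.9%, 19.7% and 63.4%, and quantile normalization made the male share 40.3%. A fit of all 300 animals with batch, whose error takes in the F2 spread, called 3487 transcripts in females, 34 in males and 6 for the difference.

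Single animals moved the counts as well. The female count was 4735, 3813 and 4225 without F1 females 1150, 1149 and 1145, and 4636, 3711 and 3485 without MRL females 1, 2 and 3. In males it was 197, 118 and 181 without MRL males 6, 7 and 8, and 1494 and 207 without F1 males 1151 and 1152. The interaction count was 4833 without MRL male 7, 5823 without MRL female 3 and 5409 without F1 male 1152.

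**Figure D5:**
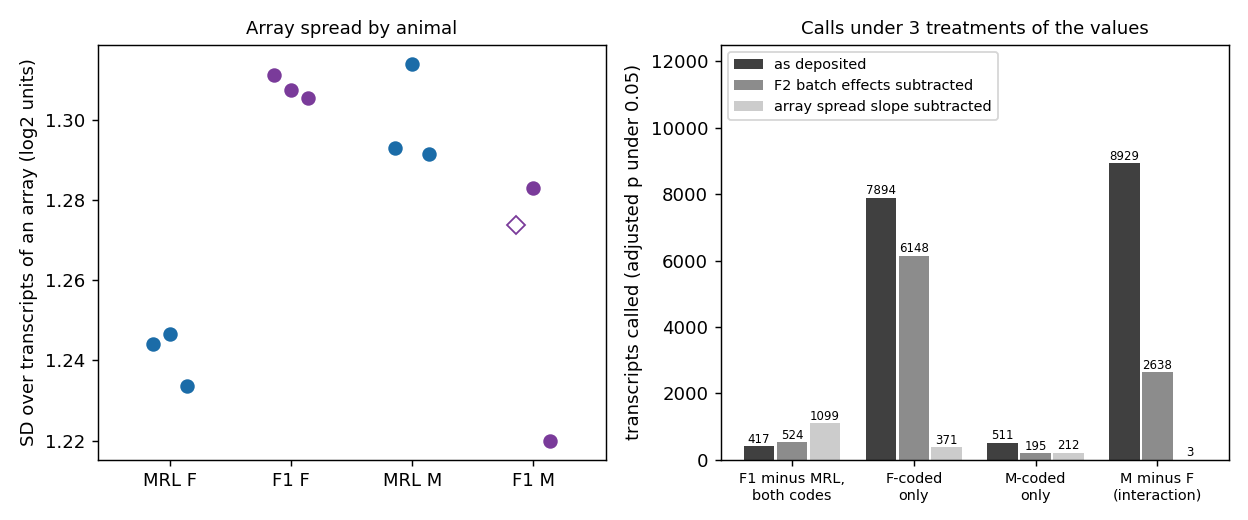
At left, the spread of each array (SD over its transcripts, in log2 units) for the MRL and F1 animals of each labelled sex; points are animals and the open diamond is the library labelled F1 male 1146. At right, the number of transcripts called in 4 comparisons with the values as deposited, with F2 batch effects subtracted and with the array spread slope subtracted; the interaction count was 8929, 2638 and 3.

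In females the largest rise beside ENSMUST00000078869_at was that of ENSMUST00000026012_at. MRL females had 6.34, 6.43 and 6.62, and F1 females 8.22, 10.50 and 9.86, with 1145 the lowest again. The difference was 3.07 ± 0.38 log2 units (SE, without 1146), 8.37-fold higher, with an adjusted p of 6.21e-04. SM females had 10.21 to 11.39. Males were 6.14 to 6.34 in MRL and 6.86 and 6.60 in F1, while 1146 had 8.23, as high as F1 female 1145.

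ENSMUST00000084343_at fell most in females, from 7.24, 7.67 and 6.47 in MRL to 5.48, 5.79 and 5.75 in F1, while SM females had 5.79 to 6.44. Males of MRL and F1 had 11.20 to 11.59, apart from 1146 at 6.46. The difference of -1.45 ± 0.20 log2 units (SE, adjusted p = 0.00146) passed without 1146. With it the SE was 0.88 and the same difference did not pass (adjusted p = 0.229). ENSMUST00000041331_at had 12.21, 12.80 and 12.50 in MRL females and 9.96, 11.71 and 11.93 in F1 females (-1.30 ± 0.36, SE, adjusted p = 0.0214). It did not pass in 8 of 26 alternatives, among them the fits without MRL female 2 (-1.15, adjusted p = 0.0752) and without MRL female 3 (-1.31, adjusted p = 0.0633).

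In males ENSMUST00000074671_at rose from 6.18, 6.60 and 6.23 in MRL to 7.89 and 8.20 in F1 males 1151 and 1152, with SM males at 7.57 to 8.70. The difference was 1.71 ± 0.20 log2 units (SE, without 1146, adjusted p = 0.00191). In females the same transcript rose from 8.18 to 8.67 in MRL to 9.18 to 10.00 in F1, and 1146, at 9.50, fell among those. ENSMUST00000055662_at went from 8.26, 8.13 and 7.97 in MRL males to 7.00 and 7.07 in F1 (-1.08 ± 0.16, SE, adjusted p = 0.00556). ENSMUST00000075341_at went from 7.94, 8.06 and 7.49 to 6.85 and 6.65 (-1.08 ± 0.20, SE, adjusted p = 0.0203). With 1146, which had 8.37 and 8.17 for this pair, neither passed (adjusted p = 0.225 and 0.292). In the 300-animal fit with batch, the difference of ENSMUST00000074671_at in males (1.93, adjusted p = 0.427) and that of ENSMUST00000078869_at in males (2.00, adjusted p = 0.739) did not pass.

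The intervals of the joint fit bound the difference averaged over the sexes, in which opposite shifts cancel. With all 12 animals, the 95% interval of F1 minus MRL lay within 0.5 log2 units of 0 for 33647 of 34406 transcripts (97.8%) and within 0.25 for 26560 (77.2%). Without 1146 these were 33706 (98.0%) and 25166 (73.1%). The median half-width of a joint interval was 0.13 log2 units. By sex the bounds were wider: the interval lay within 0.5 for 31107 transcripts (90.4%) in females and 32711 (95.1%) in males, and within 0.25 for 12440 (36.2%) and 17853 (51.9%). Without 1146 the numbers within 0.5 were 31435 (91.4%) and 32160 (93.5%). ENSMUST00000082131_at had a joint difference of -0.23 log2 units, with -1.07 in females and 0.61 in males. The male difference was not called (limma adjusted p = 0.0998, and 0.0547 without 1146). Over 26 alternatives the difference between the sexes ran from 0.07 to 1.84 log2 units.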

How the data were processed

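The deposited values are log2 levels, 1 for each Ensembl transcript and array. The submitters' processing notes name RMA, affy and R 2.11 for them. RMA as a method corrects background, quantile-normalizes probe intensities over arrays and summarises the probes of a transcript. No Ensembl release or genome build is given in the sources used here. Values ran from 4.66 to 13.60, and no 2 arrays were alike (highest correlation 0.995).

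Groups were taken from the titles. F1 minus MRL was fitted in 12 animals with limma 3.58.1 in R 4.3.3 (lmFit, eBayes), with sex as a covariate, Benjamini-Hochberg adjustment over 34406 transcripts and a threshold of 0.05. Means of 4 groups served for the differences by sex and their interaction, and 18 animals gave the SM comparisons. The fits were tested on simulated data. Replicates are different animals, per the labels.

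Named transcripts are at most 2 per direction in each comparison or position class. For F1 minus MRL they had to be called with and without 1146 and not overlap in either sex; for the comparisons by sex they had to be called without 1146. They were ranked by absolute difference, in the fits without 1146. Position classes were ranked by the parental difference, and transcripts apart from both parents by F1 minus MRL, with all animals. Gene lists and cell markers were not applied, since 0 of 34406 identifiers matched the gene table (assembly GRCm38.p6). Members, lists and rules were chosen with earlier results of these data known. Batch effects and array spread slopes for the alternatives were estimated in 282 F2 animals. Figures were drawn with matplotlib 3.10.9.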

Additional observations from a re-analysis of the deposited data

Results flagged for a closer look

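The F1 minus MRL difference was called unlike between the sexes for 8929 of 34406 transcripts (26.0%) by the interaction test (limma, adjusted p under 0.05), a difference between groups. With the array spread slope subtracted 3 transcripts passed, and with batch in a fit of all 300 animals, whose error takes in the F2 spread, 6. With F2 batch effects subtracted instead, and without the library labelled F1 male 1146, 4125 of 34406 passed, against 10113 (29.4%) without that subtraction.

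The named transcripts of this test, without the library labelled F1 male 1146, were these. ENSMUST00000082131_at differed by 1.83 ± 0.24 log2 units between males and females in its F1 minus MRL difference (SE, limma adjusted p = 0.00402). With 1146 this was 1.68 (adjusted p = 0.00671). The transcript was at 8.53, 8.48 and 8.07 in MRL females and 7.32, 7.54 and 7.01 in F1 females. In males it was at 7.65, 7.43 and 7.69 in MRL and 8.03 and 8.65 in F1. With the array spread slope subtracted its difference was 0.12 log2 units (adjusted p = 0.94), and it did not pass in 5 of 26 alternatives. ENSMUST00000004136_at had 1.79 ± 0.64 (adjusted p = 0.0481), and 1.32 with 1146 (adjusted p = 0.162). It passed in only 1 of its 26 alternatives, the fit without 1146.

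In the other direction, ENSMUST00000026012_at had -2.56 ± 0.56 log2 units (SE, limma adjusted p = 0.00882), the lowest adjusted p of its alternatives. With 1146 it had -2.06 ± 0.65 (adjusted p = 0.0345). It did not pass in 20 of 26 alternatives, among them the array spread slope subtracted with 1146 included (-2.53, adjusted p = 0.53). ENSMUST00000108522_at had -2.38 ± 0.43 (adjusted p = 0.00561), and -2.17 with 1146 (adjusted p = 0.00803). Its F1 females, at 7.81, 9.50 and 8.37, exceeded MRL females at 6.04 to 6.14, while males of both groups lay at 5.36 to 5.76, apart from 1146 at 6.22. This transcript did not pass in 6 of 25 alternatives, among them F2 batch effects subtracted (-1.58, adjusted p = 0.057).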

How the results depend on the processing

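The count of F1 minus MRL calls, 417, ranged from 230 to 913 when a replicate was left out. The female count ranged from 3485 to 10593, the male count from 118 to 1494 and the interaction count from 4833 to 10582. In the order joint, female, male and interaction, subtraction of the array spread slope gave 1099, 371, 212 and 3. All 300 animals with batch gave 403, 3487, 34 and 6. Quantile normalization gave 611, 3983, 298 and 3301. F2 batch effects subtracted gave 195 in males and 2638 for the interaction. Transcripts above the median level gave 4526 in females and 4728 for the interaction. Arrays centred on their median gave 243 joint calls, with 63.4% higher against 53.7%, and 27.4% of the interaction calls were higher against 51.1%. The joint count was 846 with 6 group means, 889 with 4, 1117 with batch as a random block and 135 with batch fixed in 18 animals, where MRL minus SM gave 1456 and F1 minus SM 52.

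The following were chosen after seeing the data and leave out 1146. The array spread slope gave 1027, 663, 222 and 6, and with batch effects subtracted too 904, 787, 174 and 0 (2995 interaction transcripts at an unadjusted p under 0.05). All 300 animals gave 85, 3367, 0 and 2 (2165 in males at an unadjusted p under 0.05). F2 batch effects alone gave 163 in males and 4125 for the interaction. Without 1152 as well, the joint, male and interaction counts were 1189, 31 and 1761.

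For positions, a parental difference of 0.5 in place of 1 gave 52 on the MRL side, 53 on the SM side and 71 between. The between count was 32 with 6 group means and 34 with the spread slope subtracted without 1146. The transcripts apart from both parents were 11 and 10 there. Of the named transcripts, ENSMUST00000082367_at alone changed sign, to -0.034 log2 units (limma adjusted p = 0.942), with batch and spread subtracted without 1146. The causes were not tested.

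F1 and MRL animals share no replicate numbers. No paired analysis was possible because of this for F1 minus MRL. With animal number as a replicate block, MRL minus SM had 2375 calls, against 3033 for the same animals without the block and 2802 in the 18-animal fit. The numbers did not pair the samples, with correlations of deviations from -0.08 to 0.22.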
